A study of Mus musculus with 4 samples.

Results

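The solute carrier (Slc) genes other than the main glucose transporters were followed across neurospheres and R1 embryonic stem (ES) cells of the mouse. Members were all probe sets whose single gene symbol in the platform annotation began with Slc and a digit, without Slc2a1, Slc2a3 and Slc1a3. This gave 149 genes, with 182 probe sets, among 8251 genes with a single symbol. The brightest probe set of each gene, by its mean log2 signal over the 4 arrays, stood for the gene. Of the 149, 146 were carriers or their subunits. The other 3 (Slc4a1ap, Slc9a3r1 and Slc9a3r2) share the symbol but encode proteins that bind carriers.

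Each of 4 total RNA samples went on an Affymetrix MG_U74Av2 array. Neurospheres, which are clusters of neural stem and progenitor cells in suspension, came from E13.5 telencephalon, were grown with FGF2, and gave 1 array. Their label names astrocytes, glia and oligodendrocytes as contaminating cells. Embryoid bodies were R1 ES cells kept unattached for 48 hours with LIF and beta-mercaptoethanol, and gave 2 arrays, titled aggregation and suspension. Adherent R1 cells had gelatin beneath them and the standard medium, with LIF and beta-mercaptoethanol, and gave 1 array. LIF, the cytokine that holds mouse ES cells undifferentiated, was thus in all R1 cultures, and R1 is a single ES line. Both embryoid body arrays carry the same sample identifier and no label states separate cultures. The p-values rest on the spread between those 2 arrays alone, which may be technical.

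Solute carriers are membrane proteins that move amino acids, ions, nucleosides, metals, vitamins and metabolites across the plasma membrane and organelle membranes, by facilitated diffusion, by exchange, or coupled to ion gradients. Some amino acid exchangers work only as a pair: a light chain of the Slc7 family carries the substrate, and a heavy chain, Slc3a2 (CD98), takes it to the cell surface. Slc25 members sit in the inner mitochondrial membrane and connect the cytosol with the matrix. When amino acids run short or the endoplasmic reticulum is under stress, the transcription factor Atf4 raises several amino acid carriers together with asparagine synthetase and tRNA synthetases.

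Signals are MAS5 intensities scaled so that each array had a trimmed mean of 500, and differences are on the log2(signal + 32) scale, with neurospheres set against R1 cells (embryoid bodies, averaged over their arrays, and adherent cells, at equal weight). All 5 ES cell markers were called lower in neurospheres, where their signals summed to 639.4, against 23362 and 28492 in aggregation and suspension embryoid bodies and 33861 in adherent cells. Of 5 neural progenitor markers, 4 were called higher in neurospheres. Of 6 astrocyte markers 4 were tested and 1 (Aldoc) was called higher, with sums of 5417 in neurospheres, 565.2 and 1317 in embryoid bodies and 461.7 in adherent cells. No marker was at 0 on any array. The ratio of 3' to 5' Gapdh signal, a check of RNA quality, was 0.946 in neurospheres, 0.880 and 0.893 in embryoid bodies and 0.804 in adherent cells.

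Promoter windows are shown for 5 members called between neurospheres and R1 cells, 3 lower and 2 higher, so that they can be read beside the differences given after them. Each runs from 250 bases before to 50 bases after a RefSeq start (GRCm38.p6), 5′ to 3′ on the gene's strand. Where a gene had several windows, the one with the most motif matches was taken. Capitals mark matches to the motifs searched. The windows are Slc7a7 at chr14:54417895-54418194 (minus strand), Slc38a4 at chr15:97031164-97031463 (minus), Slc3a2 at chr19:8713848-8714147 (minus), Slc25a4 at chr8:46211013-46211312 (minus) and Slc35b2 at chr17:45563686-45563985 (plus).
Slc7a7: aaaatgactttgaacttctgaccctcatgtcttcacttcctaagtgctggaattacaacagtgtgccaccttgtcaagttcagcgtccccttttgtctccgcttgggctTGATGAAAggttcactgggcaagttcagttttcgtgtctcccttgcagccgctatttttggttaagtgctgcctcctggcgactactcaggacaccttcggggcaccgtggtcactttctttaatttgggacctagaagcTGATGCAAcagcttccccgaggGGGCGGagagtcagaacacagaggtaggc
Slc38a4: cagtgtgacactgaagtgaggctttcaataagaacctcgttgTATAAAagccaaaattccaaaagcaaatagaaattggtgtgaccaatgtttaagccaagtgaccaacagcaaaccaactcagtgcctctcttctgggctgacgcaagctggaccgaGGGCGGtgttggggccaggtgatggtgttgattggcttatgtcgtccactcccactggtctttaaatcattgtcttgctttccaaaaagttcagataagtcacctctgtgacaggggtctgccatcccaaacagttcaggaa
Slc3a2: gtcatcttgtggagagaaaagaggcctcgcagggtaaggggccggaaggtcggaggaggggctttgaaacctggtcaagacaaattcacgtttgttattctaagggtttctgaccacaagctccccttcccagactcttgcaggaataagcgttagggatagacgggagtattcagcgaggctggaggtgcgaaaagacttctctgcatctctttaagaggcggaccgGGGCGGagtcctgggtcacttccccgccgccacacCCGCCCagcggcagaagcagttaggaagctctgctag
Slc25a4: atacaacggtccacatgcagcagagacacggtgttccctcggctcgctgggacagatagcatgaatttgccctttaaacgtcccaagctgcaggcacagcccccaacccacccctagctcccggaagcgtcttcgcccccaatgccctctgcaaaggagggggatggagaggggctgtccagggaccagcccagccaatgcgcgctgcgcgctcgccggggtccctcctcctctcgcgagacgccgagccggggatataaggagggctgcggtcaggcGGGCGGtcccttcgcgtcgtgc
Slc35b2: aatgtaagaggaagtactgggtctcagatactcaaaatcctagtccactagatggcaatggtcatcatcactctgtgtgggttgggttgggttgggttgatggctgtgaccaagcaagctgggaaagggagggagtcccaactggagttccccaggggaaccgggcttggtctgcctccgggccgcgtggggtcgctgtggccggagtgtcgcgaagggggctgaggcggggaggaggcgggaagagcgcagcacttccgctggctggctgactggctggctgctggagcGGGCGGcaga
In the Slc7a7 window, the capitals are 2 matches to the core TGATGNAA of C/EBP-ATF response elements, the kind of element that Atf4 binds with a C/EBP partner, and 1 GC box. The Slc38a4 window holds a TATA box and a GC box. The Slc3a2 window holds 2 GC boxes, one on each strand, and the Slc25a4 and Slc35b2 windows hold 1 each.

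The motifs searched, on both strands, were the octamer ATGCAAAT, the core TGATGNAA, the GC box GGGCGG, the TATA box TATAAA and the STAT pair TTCNNNGAA. Windows were found for 123 of the 149 members. Of the 10 members with a window that were called lower in neurospheres, 1 (Slc7a7) held the TGATGNAA core, against 4.51% of all 27025 genes with windows. A GC box was present in 9 of these 10, in 9 of the 10 with a window that were called higher, in 69.9% of all members and in 38.2% of all genes. A TATA box was present in 2 of the 10 called lower, in 0 of the 10 called higher and in 15.7% of all genes. The octamer, known for Pou5f1 binding, was in none of the windows of called members and in 1.97% of all genes. A gene counted as a match when any of its windows matched, so more windows per gene raise these shares. The 10 called lower had 26 windows, 5 of them of Slc7a7, and the 10 called higher had 17. The 123 members had 174 windows and the 27025 genes had 32851. No match shows that a factor binds, and no absence shows that it does not.

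The comparison of neurospheres with R1 cells addresses how the 2 kinds of stem cell differ in the RNA signals of their carriers. Transport itself was not measured. Of the 149 members, 104 reached the array median on at least 1 array and were tested. Of these 104, 11 (10.6%) were called higher in neurospheres and 13 (12.5%) lower, at a limma adjusted p under 0.05. Over all 6843 features tested, 8.2% were called higher and 11.9% lower, so the members' shares were near the background. At an unadjusted p under 0.05, 35 members passed in either direction, where the background was 32.6%. The median difference of the tested members was 0.41, against 0.10 over all features. At least 2-fold above every R1 array were 17 members, where the background was 10.3%, and at least 2-fold below every R1 array were 14, where it was 10.9%. The other 45 members stayed under the median on all arrays, with signals of 4.64 to 220.3, and have no call. Fitted without that filter, all 149 members gave 11 calls higher and 11 lower, where the background was 4.79% and 5.97%, and a median of 0.19 against 0.16 over all features. Of the tested members, 9 passed only through the neurosphere array and 20 only through R1 arrays. Without the intensity trend in limma's variance, 13 of the 24 calls ended: Slc3a2, Slc6a6, Slc6a9, Slc7a5, Slc11a1, Slc25a11, Slc25a25, Slc29a1, Slc38a2, Slc39a1, Slc39a7, Slc44a1 and Slc48a1.

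**Figure D1:**
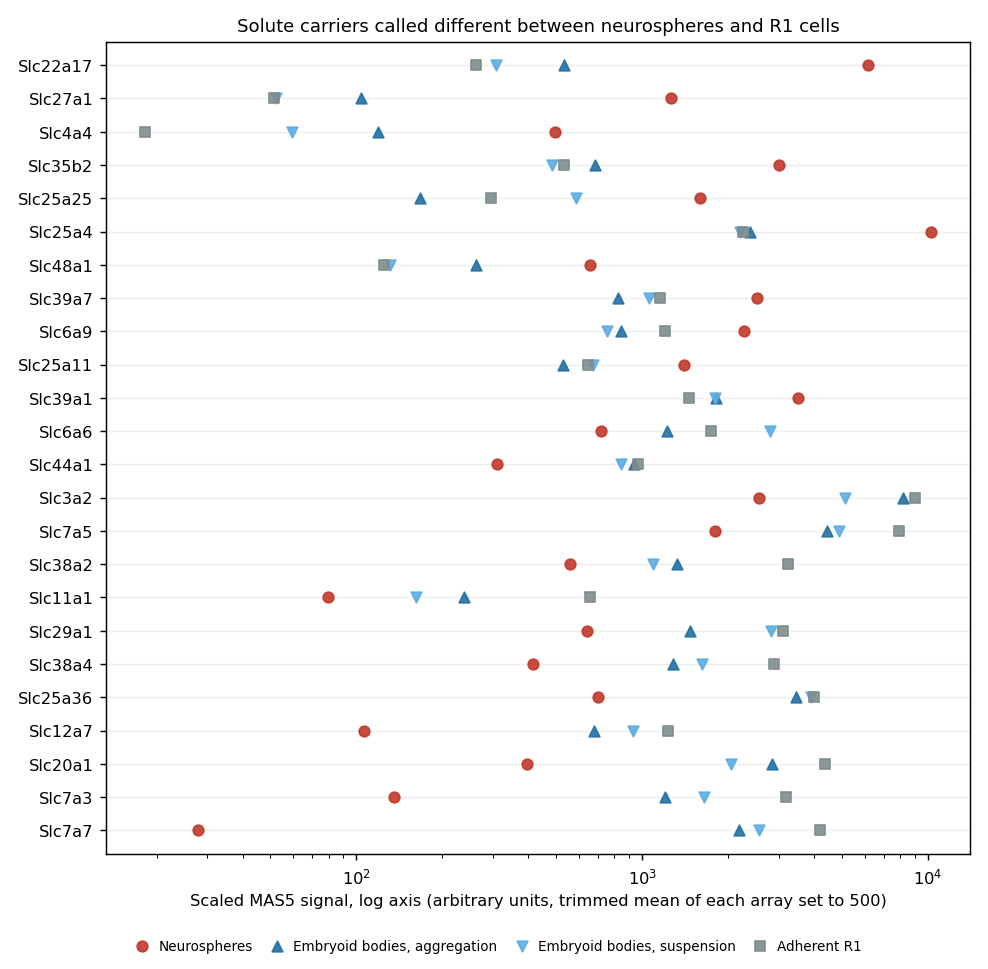
Scaled signal (log axis, arbitrary units) of the 24 called solute carriers, 1 row per gene, with a red circle for neurospheres, dark and light blue triangles for the aggregation and suspension embryoid body arrays and a grey square for adherent R1 cells. The 11 genes called higher are at the top, and in each of the 24 the neurosphere point lies outside the range of the R1 points. With 1 neurosphere array, this goes with the call and is no separate support for it.

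Within the Slc1, 3, 7 and 38 families of amino acid carriers, calls went in one direction only. The glycine transporter Slc6a9, counted with the Slc6 family, was called higher. Of 20 members of the Slc1, 3, 7 and 38 families, 12 were tested. Of these 12, 6 (50%) were called lower in neurospheres and 0 higher, where the background was 11.9% and 8.2%. At an unadjusted p under 0.05 the counts were also 6 and 0. The median difference of the 12 was -0.90, against 0.10 over all features. These 12 are the members that passed the signal filter. Slc7a7, Slc7a3 and Slc7a2 passed only through R1 arrays, and Slc1a2 only through the neurosphere array. The share and the median therefore do not describe all 20. Fitted without the filter, 6 of the 20 were called lower and 0 higher, where the background was 5.97% and 4.79%, with a median of -0.36 against 0.16 over all features. With the filter but without the intensity trend 3 stayed called (Slc7a7, Slc7a3 and Slc38a4). In bulk samples, fewer cells of a type and less RNA per cell cannot be told apart.

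Slc7a7 (y+LAT1) is a light chain that exchanges cationic for neutral amino acids, and its loss causes lysinuric protein intolerance in humans. It lies on chromosome 14 (GRCm38.p6, 54369442-54420068). Its signal was 27.8 in neurospheres, under that array's 10th percentile of 33.8, against 2173 and 2572 in aggregation and suspension embryoid bodies and 4181 in adherent cells. All 3 R1 signals were far above the neurosphere signal, which cannot be told from background, so no fold or log2 difference is given. Slc7a7 was called lower with a limma adjusted p of 6.5e-10. Slc7a3 (CAT-3), a carrier of arginine and lysine on the X chromosome, had 135.4 in neurospheres, 1200.5 and 1645 in embryoid bodies and 3175 in adherent cells, a difference of -3.68 ± 0.35 (SE, adjusted p = 4.74e-07). Both carriers of cationic amino acids therefore had a gap to every R1 array. The third tested one, Slc7a2 (CAT-2), reached the array median only in suspension, with 81.4 in neurospheres, 157.3 and 393.7 in embryoid bodies and 30.8 in adherent cells, and was not called (-0.24, adjusted p = 0.878).

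The sodium-coupled carriers Slc38a4 (SNAT4) and Slc38a2 (SNAT2) take up small neutral amino acids. Slc38a4 had 414.3 in neurospheres, 1278 and 1617 in embryoid bodies and 2903 in adherent cells (-2.22 ± 0.33, adjusted p = 6.74e-05). Slc38a2 had 559.7 in neurospheres, 1327 and 1094 in embryoid bodies and 3235 in adherent cells (-1.76 ± 0.32, adjusted p = 0.000606). Neither overlapped the R1 range, and adherent cells were highest for both. Slc38a2 also has 3 dimmer probe sets of the _r_at class, which go beyond Affymetrix's usual design rules. None of them reached an array median, and their differences had the opposite sign, 1.60, 1.39 and 1.39.

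The heavy chain Slc3a2 pairs with Slc7a5 (LAT1), which carries leucine and other large neutral amino acids, as well as with Slc7a7. Slc7a5 had 1792 in neurospheres, 4440.0 and 4869 in embryoid bodies and 7933 in adherent cells, and fell by 1.74 ± 0.26 on the log2 scale (adjusted p = 8.43e-05). Slc3a2 had 2556 in neurospheres, 8155 and 5128 in embryoid bodies and 9030 in adherent cells, and fell by 1.57 ± 0.29 (adjusted p = 0.000569). Slc3a2, Slc7a5 and Slc7a7 thus had lower signals in neurospheres than on any R1 array. Without the aggregation array, the call of Slc3a2 ended, at -1.40.

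The other 6 tested amino acid carriers were not called. The neutral amino acid exchangers Slc1a4 (ASCT1) and Slc1a5 (ASCT2) differed by 0.41 and 0.72, and Slc38a5 (SNAT5) by 0.70. The glutamate transporter Slc1a2 (GLT-1), best known from astrocytes, had 327.3 in neurospheres, 133.0 and 90.4 in embryoid bodies and 122.8 in adherent cells, a difference of 1.28 with an adjusted p of 0.26. It is itself one of the astrocyte markers given above. The untested 8 were Slc1a1, Slc1a6, Slc3a1, Slc7a1, Slc7a6, Slc7a8, Slc7a9 and Slc7a11, so nothing is called for the cystine exchanger Slc7a11 or for CAT-1 (Slc7a1).

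**Figure D2:**
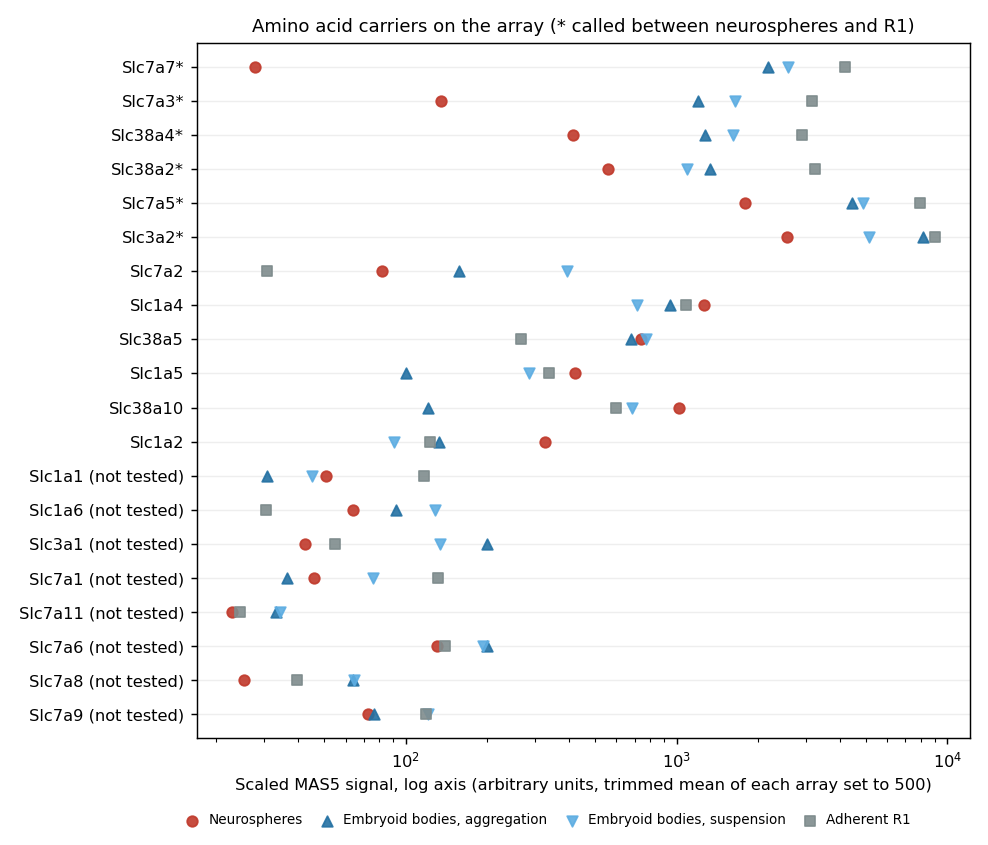
Scaled signal (log axis, arbitrary units) of the 20 amino acid carriers in neurospheres, aggregation and suspension embryoid bodies and adherent R1 cells, with the 12 tested genes first in order of their difference and a star on each called one. The 6 starred genes have the neurosphere point left of every R1 point, which goes with the call and is no separate support for it.

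Genes of the amino acid response and of serine synthesis were set beside the carriers. Of 20 listed, 18 were on the array and 17 were tested. In neurospheres 9 were called lower and 0 higher, with a median difference of -1.43, where 11.9% and 8.2% of all features were called. Without the intensity trend 3 were called lower, and without the aggregation array 6. Asns, asparagine synthetase, had 2366 in neurospheres, 10348 and 10900.5 in embryoid bodies and 11845 in adherent cells (-2.23 ± 0.25, adjusted p = 3.55e-06). Trib3, a pseudokinase induced in the same response, had 25.8 in neurospheres, under that array's 10th percentile, against 1081 and 468.4 in embryoid bodies and 1817 in adherent cells (adjusted p = 4.53e-06). Atf4 had 2524 in neurospheres, 13873 and 7018 in embryoid bodies and 7818 in adherent cells (-1.79, adjusted p = 0.00044). Each of these 3 was lowest in neurospheres, and the 2 embryoid body arrays lay far apart for Trib3 and Atf4. The others called lower were Aars, Gars and Sars, which charge tRNAs, and Cebpb, Herpud1 and Shmt1. The serine synthesis enzymes Phgdh, Psat1 and Psph were not called, at 0.05, -0.57 and -0.54. The medium of the neurospheres differed from that of the R1 cells, and its part in these values was not tested.

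**Figure D3:**
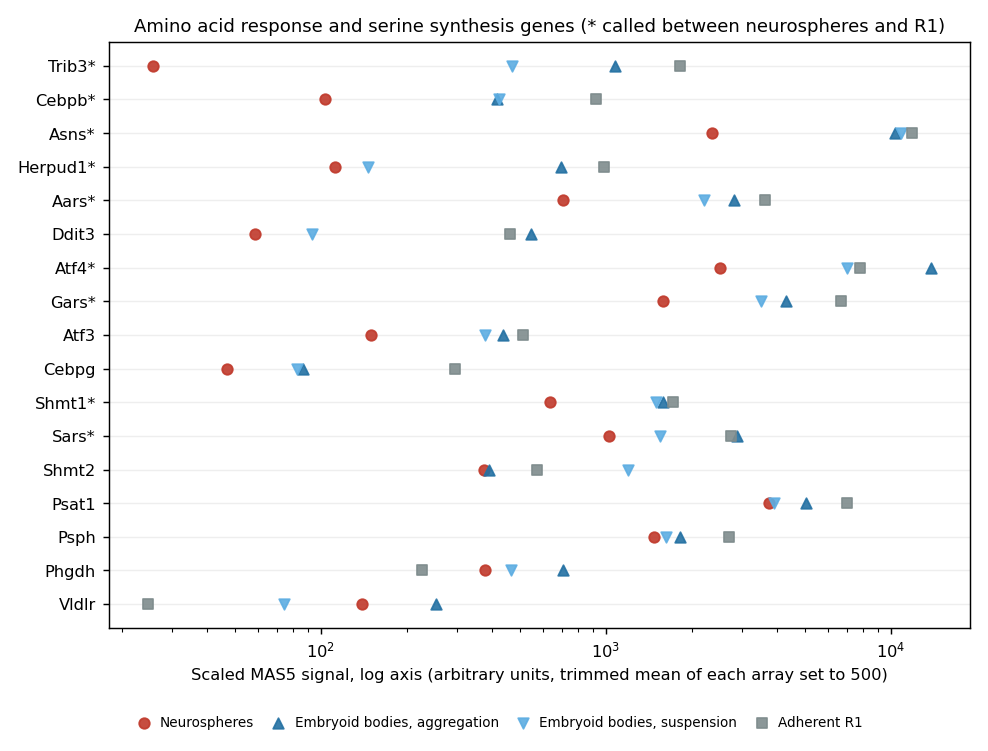
Scaled signal (log axis, arbitrary units) of the 17 tested genes of the amino acid response and serine synthesis in neurospheres, aggregation and suspension embryoid bodies and adherent R1 cells, in order of their difference. The 9 starred genes were called lower in neurospheres, and Phgdh and Vldlr are the only 2 rows with a point left of the neurosphere point.

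Among 20 carriers of inorganic ions, 11 were tested, 2 were called lower and 1 higher, close to the background of 11.9% and 8.2%. Slc20a1 (Pit-1), a sodium-phosphate cotransporter, had 396.8 in neurospheres, 2840 and 2038 in embryoid bodies and 4352 in adherent cells (-2.93 ± 0.31, adjusted p = 1.67e-06). Slc12a7 (KCC4), a potassium-chloride cotransporter, had 106.7 in neurospheres, 677.9 and 927.7 in embryoid bodies and 1227 in adherent cells (-2.88 ± 0.43, adjusted p = 7.04e-05). For both, all R1 arrays were above the neurosphere array by several fold. Slc12a7 passed the signal filter only through R1 arrays. Slc4a4 (NBCe1), a sodium-bicarbonate cotransporter of astrocytes and epithelia, had 496.2 in neurospheres, 119.2 and 59.7 in embryoid bodies and 18.3 in adherent cells (2.78 ± 0.92, adjusted p = 0.0379). It passed the signal filter only through the neurosphere array. Its call ended without either embryoid body array, at 2.96 without aggregation and 2.60 without suspension. Astrocyte markers were also higher in summed signal in neurospheres, as given above, but most of that sum was Aldoc, with 4279. Gfap, Aqp4 and Slc1a2 were above every R1 array without a call, while S100b and Gjb6 were below the suspension array. The part of the astrocyte markers in the Slc4a4 value was not tested. Slc12a2 (NKCC1) and Slc12a4 (KCC1) were not called, at -0.46 and 0.16.

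Slc29a1 (ENT1), the equilibrative nucleoside transporter, was the only tested nucleoside carrier. It had 638.7 in neurospheres, 1472 and 2821 in embryoid bodies and 3099 in adherent cells (-1.92 ± 0.35, adjusted p = 0.000533). Its call ended with the mean of its probe sets (-0.63), since a dimmer probe set gave 0.67, with 155.3 in neurospheres, 362.3 and 147.0 in embryoid bodies and 20.3 in adherent cells. Of 11 enzymes of nucleoside salvage and nucleotide synthesis on the array, all tested, 5 were called lower in neurospheres and 0 higher, with 2 lower without the intensity trend and 3 without either embryoid body array. The background was 11.9% lower and 8.2% higher. Upp1, uridine phosphorylase, had 106.2 in neurospheres, 3567 and 2337 in embryoid bodies and 3615 in adherent cells (-4.56 ± 0.33, adjusted p = 1.07e-08). Uck2, a uridine-cytidine kinase, fell by 2.41 (adjusted p = 1.49e-05). Hprt, Ada and Pnp, which act on purines, were the other 3.

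Mitochondrial carriers of the Slc25 family gave 18 tested genes of 20, with 3 called higher and 1 lower and a median difference of 0.73, against a background of 8.2% and 11.9% and a median of 0.10 over all features. With 18 genes tested, each of these counts rests on few genes. Without the intensity trend 1 was called each way, and without either embryoid body array 2 were called higher. One of the 18, Slc25a17, is known from peroxisomes. Slc25a4 (ANT1), the ADP/ATP exchanger of heart, muscle and brain, had 10256 in neurospheres, 2388 and 2206 in embryoid bodies and 2259 in adherent cells. The 3 R1 signals lay close together and the neurosphere signal stood above all of them (2.16 ± 0.27, adjusted p = 1.04e-05). Its relative Slc25a5 (ANT2) had 3914 in neurospheres, 2693 and 2112 in embryoid bodies and 2085 in adherent cells and missed the threshold (0.80, adjusted p = 0.0539). Slc25a25, an ATP-magnesium/phosphate carrier, had 1587 in neurospheres, 167.4 and 587.8 in embryoid bodies and 295.5 in adherent cells (2.25 ± 0.55, adjusted p = 0.00589). Slc25a11, the oxoglutarate carrier of the malate-aspartate shuttle, was higher by 1.13 ± 0.38 (adjusted p = 0.0408), a call that ended without either embryoid body array.

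Slc25a36, a pyrimidine nucleotide carrier, was the mitochondrial member called lower. It had 702.7 in neurospheres, 3457 and 3881 in embryoid bodies and 3988 in adherent cells (-2.39 ± 0.28, adjusted p = 5.32e-06). Its R1 signals differed little among themselves. Slc25a1, the citrate carrier, and Slc25a20, the carnitine-acylcarnitine carrier, were not called, both at 0.10.

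Metal carriers gave 16 tested genes of 17, with 3 called higher and 1 lower and a median of 0.86. The background was 8.2% higher and 11.9% lower, with a median of 0.10 over all features. Slc39a1 (ZIP1), a zinc importer, had 3512 in neurospheres, 1814 and 1791 in embryoid bodies and 1457 in adherent cells (1.10 ± 0.29, adjusted p = 0.0103). Slc39a7 (ZIP7), which releases zinc from the endoplasmic reticulum, had 2516 in neurospheres, 820.6 and 1058 in embryoid bodies and 1159 in adherent cells (1.25 ± 0.33, adjusted p = 0.0102). Slc48a1 (HRG1), a heme transporter of endosomes and lysosomes, had 654.2 in neurospheres, 261.4 and 131.0 in embryoid bodies and 125.0 in adherent cells (1.89 ± 0.63, adjusted p = 0.0405). The 3 neurosphere signals were above all R1 signals, but the calls of Slc39a1 and Slc48a1 ended without either embryoid body array and that of Slc39a7 without the aggregation array. Leaving out the aggregation array left 0 metal carriers called, and leaving out the suspension array left 1.

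Slc11a1 (NRAMP1), the phagosomal metal exporter of macrophages, had 79.3 in neurospheres, 237.3 and 162.2 in embryoid bodies and 657.8 in adherent cells (-1.84 ± 0.64, adjusted p = 0.0491). Its call ended without either embryoid body array, and it passed the signal filter only through R1 arrays. Of 7 microglia and macrophage markers, 3 were tested and 1 (Cd68) was called lower, at -1.78. The other tested ones, Csf1r and Cx3cr1, went the other way without a call, at 1.15 and 0.45. Signals of all 7 summed to 2428 in neurospheres, 2830 and 2098 in embryoid bodies and 1944 in adherent cells, with none at 0. Their part in the Slc11a1 value was not tested. The zinc carriers Slc39a3 and Slc39a6 were at least 2-fold above every R1 array without a call, at 2.41 (adjusted p = 0.121) and 1.46 (adjusted p = 0.0824).

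The largest difference upward belonged to Slc22a17, known as a receptor for lipocalin 2 and a brain-type member of the organic cation family. It lies on chromosome 14 (54906727-54913132) and had 6145 in neurospheres, 532.1 and 309.1 in embryoid bodies and 263.1 in adherent cells (4.10 ± 0.40, adjusted p = 6.39e-07). It was the only one of 9 tested carriers of organic ions and drugs to be called, where the background was 8.2% higher and 11.9% lower. Slc27a1 (FATP1), which brings in long-chain fatty acids, followed with 1262 in neurospheres, 103.6 and 52.3 in embryoid bodies and 51.4 in adherent cells (3.78 ± 0.76, adjusted p = 0.00141). For both, every R1 signal was well below the neurosphere signal. Slc27a1 passed the signal filter only through the neurosphere array. Slc44a1, a choline carrier, had 311.6 in neurospheres, 933.0 and 841.5 in embryoid bodies and 968.3 in adherent cells (-1.48 ± 0.38, adjusted p = 0.00956), and its call ended without either embryoid body array.

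Slc35b2, which carries the sulfate donor PAPS into the Golgi, was the only called one of 9 tested members of the Slc35 family, whose known members carry nucleotide sugars. It had 3011 in neurospheres, 686.1 and 482.3 in embryoid bodies and 531.8 in adherent cells (2.38 ± 0.37, adjusted p = 0.00012). Carriers of transmitters, taurine and creatine gave 8 tested genes of 13, all 8 of the Slc6 family, with 1 called each way. For both families the background was 8.2% called higher and 11.9% lower. Slc6a9 (GlyT1), a glycine transporter, had 2269 in neurospheres, 842.3 and 751.4 in embryoid bodies and 1197 in adherent cells (1.19 ± 0.33, adjusted p = 0.015). Slc6a6 (TauT), the taurine transporter, had 718.6 in neurospheres, 1221 and 2799 in embryoid bodies and 1736 in adherent cells (-1.28 ± 0.38, adjusted p = 0.0234). The embryoid body signals of Slc6a6 lay far apart and a dimmer probe set of it gave 0.52. Its call ended without the suspension array (-0.99), and that of Slc6a9 ended without either. Slc6a15, Slc6a18 and Slc6a20b, which carry amino acids rather than transmitters, were kept with this family and were not called.

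No member was called among the tested sugar (5), vitamin (3), monocarboxylate (1) and peptide (1) carriers or the 3 carrier-binding proteins. Slc15a2 (PEPT2), a peptide importer, had 293.0 in neurospheres, 47.7 and 35.6 in embryoid bodies and 28.5 in adherent cells, and missed the threshold (2.29, adjusted p = 0.161). It was called higher without the signal filter (adjusted p = 0.031) and without the intensity trend (adjusted p = 0.0438). Slc5a6, a carrier of biotin and pantothenate, was counted with the sugar families and differed by 0.45. Slc2a8, a further member of the glucose transporter family, and Slc50a1, known as an intracellular sugar carrier, differed by 0.14 and 0.65. The scaffold protein Slc9a3r1 had 1624 in neurospheres, 705.0 and 1051 in embryoid bodies and 711.7 in adherent cells, just short of a call (1.02, adjusted p = 0.0536).

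**Figure D4:**
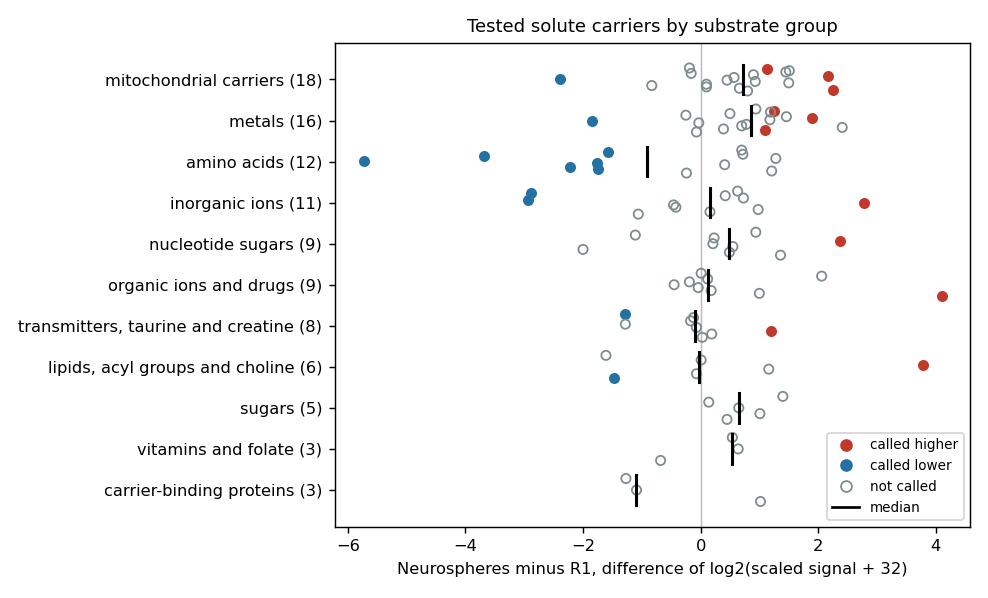
Difference of neurospheres minus R1 cells on the log2(signal + 32) scale for the tested solute carriers, by substrate group, with the number tested in brackets, filled red and blue points for genes called higher and lower, open points for the rest and a black bar for each group's median. Groups with fewer than 3 tested members are left out. The amino acid row has 6 blue points and no red one, and its median is -0.90. Its leftmost point, Slc7a7, rests on a neurosphere signal under the array's 10th percentile, so its place on the axis depends on the added 32.

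The comparison of embryoid bodies with adherent cells addresses what changes with growth off the dish. Of the 104 tested members, 1 was called higher in embryoid bodies and 0 lower by limma, where the background was 0.263% and 0.0877%. At an unadjusted p under 0.05, 7 were higher and 8 lower, where 14.4% of all features passed in either direction. Both embryoid body arrays were at least 2-fold above the adherent array for 11 members (10.6%, background 8.97%) and at least 2-fold below it for 3 (2.88%, background 3.68%). The adherent array also had the lowest 10th percentile, 17.4, against 29.5 and 33.7 on the embryoid body arrays. Adherent cells were above both embryoid body arrays for 35 tested members, where the background was 32.7%, and below both for 43, where it was 42.2%. The part of that floor in differences of dim genes was not tested.

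Slc39a4 (ZIP4), the zinc importer of the gut, was the called member. It had 3288 and 3309 in embryoid bodies and 1106 in adherent cells (1.55 ± 0.30, adjusted p = 0.0266), and 1603 in neurospheres. The embryoid body arrays almost coincided, both well above the adherent array. These signals come from a probe set of the _r_at class, which goes beyond Affymetrix's usual design rules. A second, plain probe set of the gene had 1178 and 1045 in embryoid bodies and 1028 in adherent cells, a difference of 0.11, so the 2 probe sets disagreed. With that probe set, Slc39a4 was called lower in neurospheres (-1.60).

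Other carriers at least 2-fold higher in both embryoid body arrays were not called. Slc11a2 (DMT1), an importer of iron and other divalent metals, had 1034 and 823.6 in embryoid bodies and 375.9 in adherent cells (1.23, adjusted p = 0.2). Slc38a5 had 676.8 and 771.0 in embryoid bodies and 266.2 in adherent cells (1.34, adjusted p = 0.188), and Slc30a3 had 2591 and 2226 in embryoid bodies and 1107 in adherent cells (1.10, adjusted p = 0.136). Among iron genes, the ferritin heavy chain gene Fth1 was called higher in embryoid bodies, with 16846 and 18267 against 6268 in adherent cells (1.48, adjusted p = 0.0169). The transferrin receptor gene Tfrc was not, with 3257 and 4725 against 1680 in adherent cells (1.21, adjusted p = 0.0831). The fibroblast marker Col1a2 was called higher in embryoid bodies as well, with 3062 and 3428 against 1123 in adherent cells. The 5 fibroblast markers summed to 4412 and 4416 in embryoid bodies against 1598 in adherent cells. Col1a2 made up most of these sums and was the only one called of 4 tested. Col3a1, Dcn and Lum were higher on both embryoid body arrays, and Col1a1 on the aggregation array alone. The part of the fibroblast markers in these values was not tested.

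**Figure D5:**
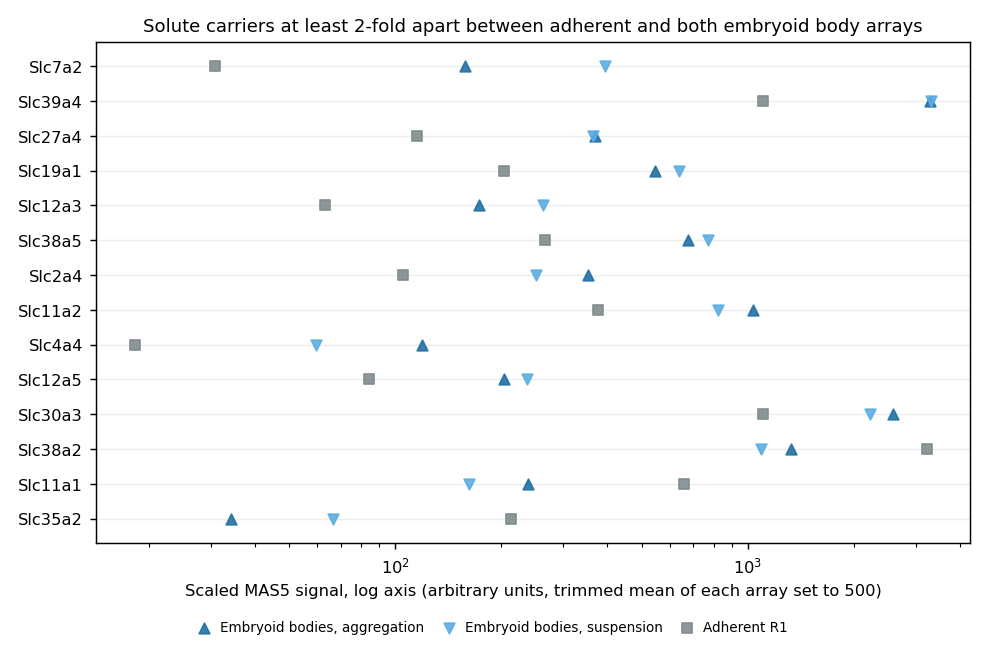
Scaled signal (log axis, arbitrary units) of the 14 tested solute carriers for which both embryoid body arrays were at least 2-fold apart from the adherent R1 array, with dark and light blue triangles for aggregation and suspension and grey squares for adherent cells. The 11 genes higher in embryoid bodies are at the top and the 3 lower ones, Slc38a2, Slc11a1 and Slc35a2, at the bottom. Only Slc39a4 was called.

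The amino acid carriers called lower in neurospheres were lower in embryoid bodies than in adherent cells without a call. Their differences between embryoid bodies and adherent cells were -0.81 for Slc7a7, -1.16 for Slc7a3, -1.0 for Slc38a4, -1.40 for Slc38a2, -0.77 for Slc7a5 and -0.48 for Slc3a2. The smallest adjusted p among them was 0.0781, for Slc38a2. The adherent array is part of both comparisons. Of the 13 members called lower in neurospheres, 12 had their highest R1 signal in adherent cells, as did 60.3% of all features called lower. Of the 9 tested carriers of organic ions and drugs, 8 had their lowest R1 signal in adherent cells, where the background was 42.2%. Some of them were dim there, such as Slc10a1 at 35.3, and the part of the adherent array's lower floor was not tested.

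The aggregation and suspension arrays were set side by side with no test. Aggregation was at least 2-fold above suspension for 11 tested members (10.6%, background 7.6%) and at least 2-fold below it for 12 (11.5%, background 9.73%). The largest differences above were in Slc25a53, with 240.0 in aggregation and 33.3 in suspension, Slc34a1, with 252.5 and 45.6, and Slc35d1, with 254.8 and 51.4. The largest below were in Slc41a1, with 29.5 in aggregation and 329.0 in suspension, Slc38a10, with 120.5 and 684.0, and Slc10a6, with 58.5 and 260.4. Each of the 6 was under the array median on the array where it was lower.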

How the data were processed

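RNA from 4 samples was measured on MG_U74Av2 arrays. The deposited values are linear MAS5 signal intensity, which the authors made with MAS5 per the submitters' processing notes. Its settings and version were not given in the sources used here, and no detection calls were used. The deposited intensities were on different scales, with trimmed means of 29.9 (neurospheres), 33.0 (aggregation), 1501 (suspension) and 1501 (adherent), so all were brought to a 2% trimmed mean of 500. The number of arrays limits the precision. The file headers place each array in its own fluidics module, so module and group cannot be told apart.

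Of 12422 probe sets other than controls, those at or above the median of at least 1 array were kept, and the brightest per gene gave 6843 features. Log2(signal + 32) values, which understate changes of dim genes, were fitted with limma 3.58.1 in R 4.3.3 (3 groups, empirical Bayes with an intensity trend), with Benjamini-Hochberg adjustment over all features and a threshold of 0.05. The pair of embryoid body arrays gave 1 residual degree of freedom and the prior 17.34, and the single arrays were taken to vary like that pair. In simulated data, 16% of genes changed by a log2 difference of 1 were called, 66% at 2 and 96% at 3 (neurospheres against R1, 6843 features). Of the 50 genes at each size from 1 to 4, in order, 8, 33, 48 and 50 were called. Of 6643 unchanged genes, 30 (0.452%) were called. False calls in the simulation were thus a larger share of all calls than the threshold of 0.05.

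The naming rule took Slc7a7 and Slc3a2, the 12 largest calls in each direction for neurospheres against R1 among members 2-fold or more from every R1 array, the 6 largest likewise for embryoid bodies, up to 4 called members of each group (or its 2 brightest), and the 3 largest each way between aggregation and suspension. Members named beyond this rule were chosen after their values were seen. Substrate groups follow the family number. Alternatives changed the pseudocount, filter, normalization, trend, probe set rule and arrays used. The members and lists were chosen with earlier results of these data known. Probe sets with several gene symbols were not named.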

Additional observations from a re-analysis of the deposited data

How the results depend on the processing

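All 24 members called between neurospheres and R1 cells kept their direction under the 12 alternatives run, and 10 of them kept their call in each: Slc7a7, Slc7a3, Slc38a4, Slc20a1, Slc12a7, Slc25a36, Slc22a17, Slc27a1, Slc35b2 and Slc25a4. Without the intensity trend 7 members were called higher and 6 lower, and 3 amino acid carriers stayed called. With adherent cells alone as the reference 7 were called higher, and 7 also when all R1 arrays formed 1 group. Leaving out one embryoid body array gave 5 to 6 higher and 10 lower. The single call between embryoid bodies and adherent cells went to 0 without the filter (unadjusted p under 0.05: 11 higher, 10 lower), without the trend (10 and 4), with the mean of all probe sets (6 and 8) and with plain probe sets only (5 and 8); Slc39a4 then differed by 1.55, 1.55, 0.83 and 0.11. Causes of these losses were not tested. Of values that were not called, some changed sign and stayed uncalled. For neurospheres against R1 cells these were Slc23a3 (-0.08, plain probe sets only), Slc2a8 (-0.15, embryoid bodies alone as the reference) and Slc39a4 (0.52, adherent cells alone). For embryoid bodies against adherent cells they were Slc15a2 (-0.14), Slc25a25 (-0.09), Slc25a36 (0.04) and Slc27a1 (-0.04) after quantile normalization, and Slc29a1 (0.87) with the mean of all probe sets. Quantile normalization moved the median of all features to 0.04. No paired analysis was possible because neurospheres and adherent cells have 1 array each. Without either embryoid body array, that group is 1 array and its difference from adherent cells has no test.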

Other observations

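Genes outside the solute carriers that work beside them were called between neurospheres and R1 cells too. Emb (embigin), a partner protein of monocarboxylate transporters, had 159.9 in neurospheres, 1075 and 1161 in embryoid bodies and 1769 in adherent cells (-2.91 ± 0.37, limma adjusted p = 1.26e-05). Its relative Bsg (basigin) had 4768 in neurospheres, 3336 and 3944 in embryoid bodies and 5890.0 in adherent cells and was not called (0.04, adjusted p = 0.926). Of 10 tested genes of nutrient sensing through mTORC1, 1 was called lower, near the background of 11.9%. It was Eif4ebp1, a repressor of translation initiation, with 381.2 in neurospheres, 2302 and 2135 in embryoid bodies and 3398 in adherent cells (-2.75 ± 0.30, adjusted p = 2.83e-06). Of 10 tested genes of glutamine and glutamate metabolism, Oat, ornithine aminotransferase, was called higher (1.5, adjusted p = 0.0223) and Ass1, argininosuccinate synthetase, lower (-1.67, adjusted p = 0.0143), near the background of 8.2% and 11.9%. Both calls ended without the signal filter, without the intensity trend and without the aggregation array. None of 4 tested sodium pump genes was called; at an unadjusted p under 0.05 the count was 0 as well.

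On chromosome 17 (GRCm38.p6), Slc29a1, called lower in neurospheres, and Slc35b2, called higher, lie 17.5 kb apart. On chromosome 14, Slc7a7 and Slc22a17, called lower and higher in neurospheres, lie 486.7 kb apart. Slc38a2 and Slc38a4, both called lower, lie 295.1 kb apart on chromosome 15.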
